A study of Mus musculus with 59 samples.

Results

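The chromatin-modifying enzyme families comprised 72 of the 24346 gene symbols in an expression table of the mouse ventral tegmental area, the midbrain region that holds most dopamine neurons of the reward pathway. They were chosen by name, as histone deacetylases (Hdac), sirtuins (Sirt), lysine demethylases (Kdm), lysine methyltransferases (Kmt2, Setd, Smyd, Ehmt), arginine methyltransferases (Prmt), DNA methyltransferases (Dnmt), methylcytosine dioxygenases (Tet) and Jarid2, and kept where the mean level over all 59 libraries was at least 1 FPKM, that is fragments per kilobase of transcript scaled to the size of the library. Of 76 symbols that matched by name, 72 passed. Tet1 at 1.43 FPKM, Setd4 at 1.70 FPKM and Setdb2 at 2.16 FPKM lay just inside the limit. Kdm4d at 0.786 FPKM lay just outside it, and Dnmt3b at 0.162 FPKM, Dnmt3l at 0.114 FPKM and Dnmt3aos at 0.0190 FPKM lay further out.

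The study set cocaine against saline in male mice in 4 paradigms and measured the transcriptome by RNA sequencing. The groups were acute home cage cocaine (5 libraries) with its saline group (6), chronic home cage cocaine (6) with saline (6), cocaine conditioning (6) with saline conditioning (6), and self-administered cocaine (15) with self-administered saline (9), the last by the intravenous route. The labels used here give no dose, duration, strain, age or time of dissection, and do not say that libraries came from separate animals, so p-values measure the spread between these libraries only. In bulk tissue, fewer cells of a type and less RNA per cell cannot be told apart.

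Acetyl and methyl groups on histone tails, and methyl groups on cytosine, mark chromatin that is open to transcription or closed to it. Methyltransferases write such marks, demethylases, deacetylases and the Tet dioxygenases remove or oxidise them, and a number of these proteins also act on substrates that are not histones. Several of the genes, among them Hdac4, Hdac5, Sirt1, Sirt2, Ehmt1, Ehmt2 and Dnmt3a, are known from work on repeated cocaine in the nucleus accumbens, a target of the dopamine neurons of the ventral tegmental area.

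The promoters of 5 members are given because the results below turn on these genes. Jarid2 had the smallest p of all members in the average effect of cocaine, Hdac5 and Kdm3a differed in opposite directions between paradigms, and Hdac9 and Sirt2 followed cell-type markers from library to library. Each runs from 250 bases before the most upstream start to 50 after it in RefSeq on GRCm38.p6, 5′ to 3′ on the strand of the gene, with CpG dinucleotides in capitals. The Jarid2 window is chr13:44730524-44730823 on the plus strand, Hdac5 is chr11:102230123-102230422 on the minus strand, Kdm3a is chr6:71632868-71633167 on the minus strand, Hdac9 is chr12:34917046-34917345 on the minus strand and Sirt2 is chr7:28766502-28766801 on the plus strand.
Jarid2: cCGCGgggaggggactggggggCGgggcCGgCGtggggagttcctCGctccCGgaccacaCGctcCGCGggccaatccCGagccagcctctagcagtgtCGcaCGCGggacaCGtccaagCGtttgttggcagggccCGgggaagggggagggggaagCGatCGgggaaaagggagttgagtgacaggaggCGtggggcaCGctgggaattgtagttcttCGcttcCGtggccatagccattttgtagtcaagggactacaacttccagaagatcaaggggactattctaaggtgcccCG
Hdac5: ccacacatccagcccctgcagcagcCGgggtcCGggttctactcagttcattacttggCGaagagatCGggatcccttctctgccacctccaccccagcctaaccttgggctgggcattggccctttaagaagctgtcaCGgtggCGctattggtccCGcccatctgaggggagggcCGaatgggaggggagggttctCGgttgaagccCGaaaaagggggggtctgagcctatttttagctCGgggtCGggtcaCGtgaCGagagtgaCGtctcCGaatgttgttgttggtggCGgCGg
Kdm3a: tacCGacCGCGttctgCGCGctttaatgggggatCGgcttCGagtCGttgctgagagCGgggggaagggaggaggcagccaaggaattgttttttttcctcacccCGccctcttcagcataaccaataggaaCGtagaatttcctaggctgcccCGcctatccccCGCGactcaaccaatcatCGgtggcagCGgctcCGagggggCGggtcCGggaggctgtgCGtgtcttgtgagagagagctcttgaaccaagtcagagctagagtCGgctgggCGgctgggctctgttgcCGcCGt
Hdac9: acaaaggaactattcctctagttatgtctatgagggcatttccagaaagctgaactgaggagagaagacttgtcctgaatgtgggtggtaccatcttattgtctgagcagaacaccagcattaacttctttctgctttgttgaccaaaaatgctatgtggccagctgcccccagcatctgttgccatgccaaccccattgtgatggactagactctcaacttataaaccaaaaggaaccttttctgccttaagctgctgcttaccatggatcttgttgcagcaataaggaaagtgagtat
Sirt2: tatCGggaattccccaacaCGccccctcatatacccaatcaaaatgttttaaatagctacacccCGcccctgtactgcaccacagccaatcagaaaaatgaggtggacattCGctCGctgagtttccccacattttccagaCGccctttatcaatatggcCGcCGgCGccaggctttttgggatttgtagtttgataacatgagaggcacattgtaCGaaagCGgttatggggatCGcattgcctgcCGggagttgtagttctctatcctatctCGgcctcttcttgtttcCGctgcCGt
The windows hold 24 CpG for Jarid2, 18 for Hdac5, 24 for Kdm3a, 16 for Sirt2 and 0 for Hdac9, whose GC content was 44.0%. Of the 72 members, 60 matched RefSeq promoters, with 82 starts in all. The median was 23 CpG and 62.7% GC over the members' promoters, against 7 CpG and 52.7% GC over all 32851 promoters of the table. The cAMP response element TGACGTCA was found on either strand in 1 of the 82 member promoters (1.22%), that of Prmt10 (Prmt9 in RefSeq), and in 1.79% of all promoters. The AP-1 letters TGANTCA were in 6 member promoters (7.32%), from 5 members, Hdac7, Hdac9, Kdm3a, Kdm4a and Kdm5c, and in 7.81% of all. The E-box CACGTG was in 10 member promoters (12.2%), from 9 members, Hdac5 and Sirt1 among them, and in 7.15% of all. Its letters include a CpG, and the part of CpG content in this share was not tested. For Kdm3a and Hdac9 the AP-1 letters lie in windows other than those printed.

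Levels of the 72 genes spanned Tet1 at 1.43 FPKM to Hdac11 at 171 FPKM, as means over all libraries. Hdac11, the single class IV deacetylase, was highest, and it lay between 131 and 189 FPKM in self-administered cocaine libraries and between 146 and 190 FPKM in self-administered saline libraries. Sirt2, a deacetylase of tubulin that is abundant in oligodendrocytes, followed at 117 FPKM, and Prmt2, an arginine methyltransferase, at 74.8 FPKM. Setd3, which methylates a histidine of actin, had 73.4 FPKM.

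**Figure D1:**
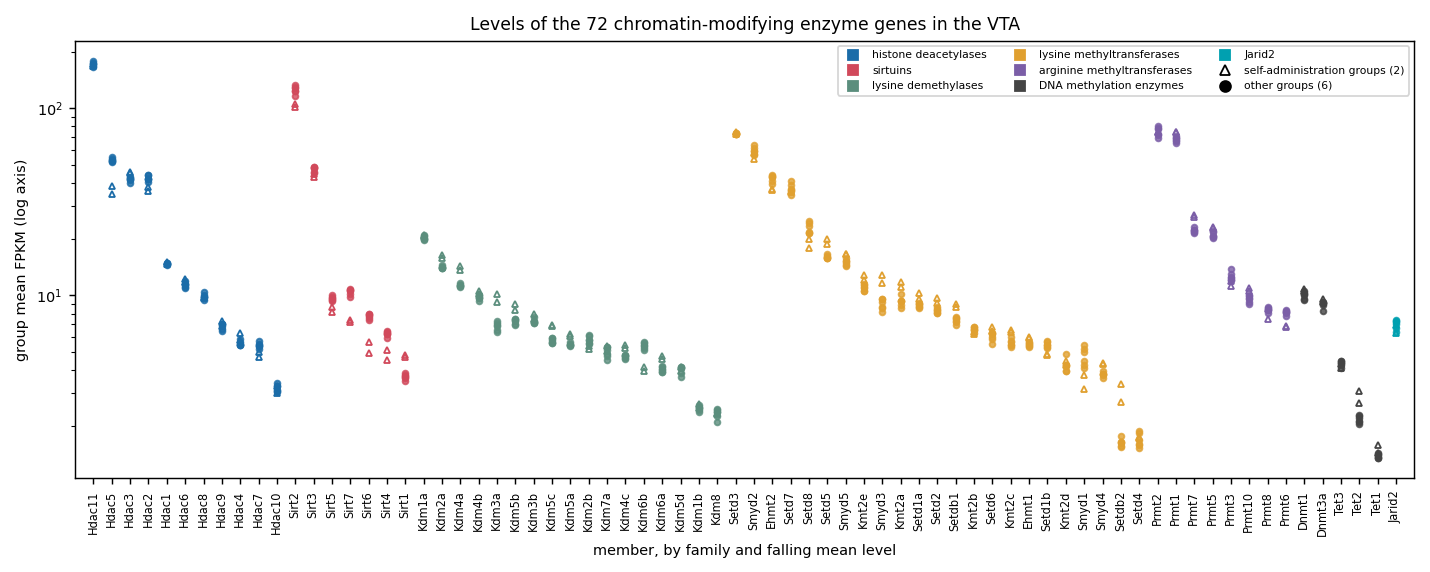
Mean FPKM (log axis) of each of the 72 members in each of the 8 groups, by family. Triangles are the 2 self-administration groups and dots the other 6; Hdac11 is highest at 171 FPKM and Tet1 lowest at 1.43 FPKM over all libraries, and triangles stand apart for Hdac5, Sirt6, Sirt7, Kdm3a and Smyd3.

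Histone deacetylases and sirtuins each had 1 gene far above the others. Hdac11 exceeded Hdac5 at 46.5 FPKM, Hdac3 at 43.2 FPKM and Hdac2 at 40.3 FPKM, and the other histone deacetylases lay lower. Among sirtuins Sirt2 was followed by mitochondrial Sirt3 at 45.8 FPKM, and nuclear Sirt1 was lowest at 4.11 FPKM. The 17 lysine demethylases were low throughout, with a highest level of 20.6 FPKM, that of Kdm1a, which removes methyl groups from lysine 4 of histone H3 (H3K4). The DNA methylation enzymes ran from 1.43 FPKM for Tet1 to 10.3 FPKM for Dnmt1, the maintenance methyltransferase.

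No member was listed at 0 in any library. The median spread within groups was 0.12 on the log2 scale over the members and 0.14 over all 13186 genes tested. Kdm3b and Kdm1a varied least, with spreads of 0.07, and Setdb2 (0.31), Smyd1 (0.24), Hdac5 (0.24) and Sirt6 (0.24) varied most. The members are long genes, with a median annotated transcript of 4503.5 bases against 3168 bases over the genes tested. Dopamine neuron markers were present in every library, with a summed level of 677 to 2769 FPKM in cocaine libraries and 700 to 2776 FPKM in saline libraries.

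Averaged over the 4 paradigms, no member passed adjusted p 0.05 between cocaine and saline (limma on log2(FPKM + 1), Benjamini-Hochberg over 13186 genes), where 0.00758% of all genes did. At an unadjusted p under 0.05 there were 9 members, or 12.5%, beside 12.8% of all genes. Of these, 4 had higher values in cocaine libraries (Prmt3, Smyd1, Smyd2 and Setd8), where 6.47% of all genes did, and 5 had lower ones (Jarid2, Smyd3, Kmt2e, Dnmt3a and Kdm5d), where 6.34% of all genes did. The count ran from 4 to 17 when single libraries were left out. It was 4 (5.56%) without acute cocaine library 4, chronic saline library 1 or self-administered saline library 3, beside 11.0% to 11.2% of all genes, and 5 (6.94%) without acute saline library 4 or self-administered saline library 7, beside 11.2% and 10.9% (numbers as in the table's columns, which start at 0). Without self-administered saline library 2 it was 17 (23.6%), beside 17.1% of all genes. It was 4 without the acute paradigm, beside 10.4% of all genes, and 18 (25.0%) with libraries weighted by quality, beside 20.1%. After length adjustment it was 6 (8.33%), beside 12.3% of all genes, and after adjustment for length and GC 13 (18.1%), beside 14.7%. In each of these settings the share of all genes moved in the same direction as that of the members. In the average effect all 7 oligodendrocyte markers had higher values in cocaine libraries (median 0.07 on the log2 scale), and all 6 astrocyte markers (-0.14) and all 5 hypothalamic and mammillary markers (-0.24) had lower ones, none past adjusted p 0.05. Their part in the member values was not tested.

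Jarid2, a subunit of polycomb repressive complex 2 with no demethylase activity of its own (chr13:44729474-44921643 on GRCm38), had the smallest p among the members. In acute cocaine libraries it had 6.85, 6.87, 6.99, 6.99 and 7.54 FPKM, against 6.55, 7.38 and 7.65 FPKM in acute saline libraries as lowest, median and highest. In chronic cocaine libraries the lowest, median and highest were 5.78, 6.29 and 6.94 FPKM, against 6.90, 7.44 and 7.71 FPKM in chronic saline libraries. The chronic groups overlapped only between 6.90 and 6.94 FPKM, while the acute groups overlapped over most of their range. In conditioning the same values were 6.34, 6.85 and 6.88 FPKM in cocaine libraries, against 6.74, 7.05 and 7.89 FPKM in saline libraries. In self-administration they were 5.27, 6.32 and 7.36 FPKM in cocaine libraries, against 5.65, 6.89 and 8.16 FPKM in saline libraries. These groups overlapped, although 14 of 15 self-administered cocaine libraries and 6 of 6 conditioning cocaine libraries lay below the median of their saline group.

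The average difference of Jarid2 was -0.11 ± 0.03 on the log2 scale (SE; 95% interval -0.16 to -0.06), with an unadjusted p of 6.85e-05 and a limma adjusted p of 0.198. By paradigm the differences were -0.04, -0.18, -0.08 and -0.12 in acute, chronic, conditioning and self-administration libraries. Exact permutation tests (two-sided, unadjusted) gave p = 0.299 for acute, p = 0.00433 for chronic and p = 0.0368 for conditioning libraries, and 100000 random permutations gave p = 0.0312 for self-administration. The paradigms' effects were not shown to differ, since no member passed the F test over the 4 effects (limma). In limma Jarid2 passed adjusted p 0.05 in 3 of the alternatives run. These were library weights (adjusted p 0.0271, difference -0.09) and the fits without self-administered saline library 8 (adjusted p 0.0486) or library 2 (adjusted p 0.0495). Those libraries held the lowest Jarid2 levels of their group, 5.65 FPKM in library 8 and 5.79 FPKM in library 2. In the other settings that left out no single library the limma adjusted p lay between 0.169 and 0.548, and over the fits without 1 library it lay between 0.0486 and 0.322.

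Smyd3, a lysine methyltransferase with histone and cytoplasmic substrates (chr1:178951960-179518041), had the next smallest p. Its level was 7.35, 8.45, 8.71, 8.81 and 9.82 FPKM in acute cocaine libraries, against 7.94, 9.36 and 11.4 FPKM in acute saline libraries (lowest, median, highest). In conditioning it had 7.65, 8.26 and 8.52 FPKM in cocaine libraries, against 8.49, 9.51 and 10.8 FPKM in saline libraries. The conditioning groups nearly separated, and each of the 6 cocaine libraries lay below the saline median. In chronic libraries the mean was 8.56 ± 0.811 FPKM with cocaine and 9.16 ± 1.1 FPKM with saline (SD, n = 6 each), and in self-administration it was 11.7 ± 1.24 FPKM with cocaine (SD, n = 15) and 12.9 ± 1.13 FPKM with saline (SD, n = 9). The average difference was -0.14 ± 0.03 on the log2 scale (SE), with a limma adjusted p of 0.216. Exact permutation p was 0.00433 in conditioning, 0.195 in acute and 0.310 in chronic libraries, and random permutations gave 0.0298 in self-administration.

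**Figure D2:**
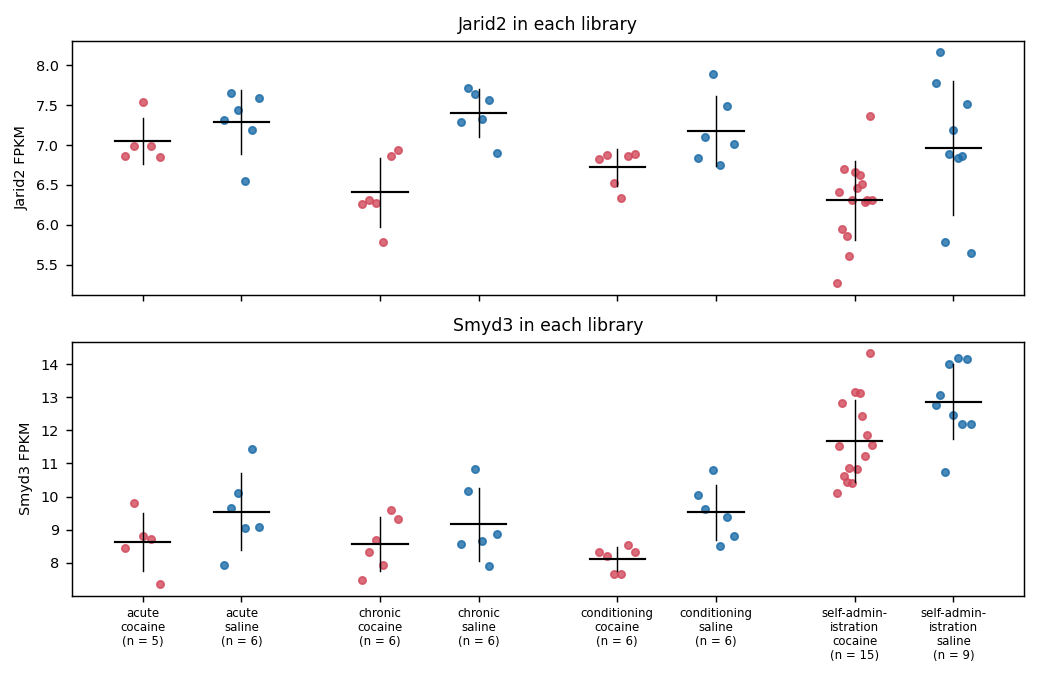
FPKM of Jarid2 (top) and Smyd3 (bottom) in each library, cocaine in red and saline in blue within each of the 4 paradigms. Thick bars are group means and thin bars 1 SD; chronic cocaine libraries lie at 5.78 to 6.94 FPKM of Jarid2 and chronic saline libraries at 6.90 to 7.71 FPKM.

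Among the genes with higher values, Prmt3, an arginine methyltransferase of a ribosomal protein, averaged 13.9 ± 1.13 FPKM in conditioning cocaine libraries and 12.1 ± 0.946 FPKM in conditioning saline libraries (SD, n = 6 each). Its average difference was 0.09 ± 0.03 on the log2 scale (limma adjusted p 0.247), and its lowest self-administered saline library stood at 9.62 FPKM. Smyd1, best known as a muscle methyltransferase, had an average difference of 0.14 ± 0.06, Smyd2 of 0.09 ± 0.04 and Setd8, which writes monomethyl marks on histone H4, of 0.08 ± 0.04 (log2, SE). Kmt2e, a reader of methylated H3K4 related to the Kmt2 enzymes, stood at -0.07 ± 0.03, and Dnmt3a, a de novo DNA methyltransferase, at -0.06 ± 0.03. Kmt2e shares 972 exonic bases with Srpk2 on the opposite strand and Smyd2 shares 659 with Gm37422, so reads of these genes cannot be told apart unless counting used strand, which the labels do not state.

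**Figure D3:**
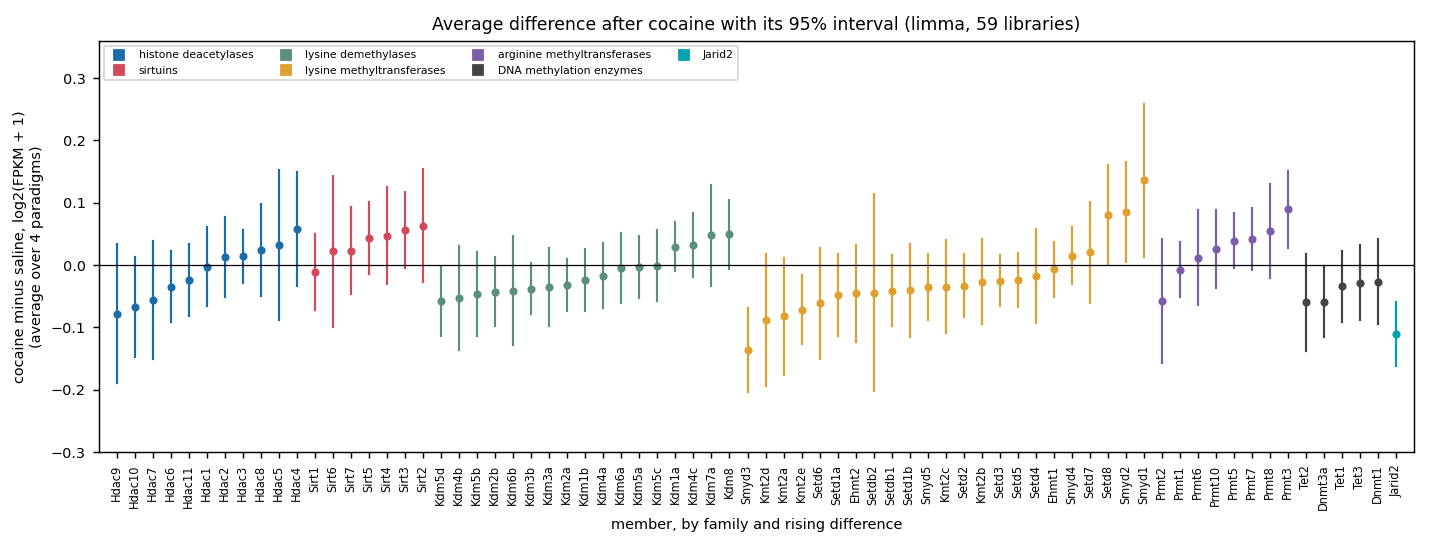
Average difference in log2(FPKM + 1), cocaine minus saline, for the 72 members by family, with 95% limma intervals from 59 libraries. Points run from -0.14 for Smyd3 to 0.14 for Smyd1, and the intervals reach -0.20 and 0.26.

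Of the 72 average differences, 46 were negative (63.9%, beside 50.4% of all genes), with a median of -0.02 on the log2 scale. All 6 H3K4 methyltransferases, all 4 H3K9 methyltransferases and all 5 DNA methylation enzymes had negative values, while 6 of 7 sirtuins and 6 of 8 arginine methyltransferases had positive ones. Of the H3K9 methyltransferases, Setdb2 was negative in self-administration alone (-0.20), with 0.04, 0.07 and 0.05 in acute, chronic and conditioning libraries. Longer genes had lower differences over the whole table, with medians of 0.02 for the shortest of 4 length classes of like size and -0.02 for the longest, and 33 of the 72 members lie in that longest class. After adjustment for transcript length the median of the members was -0.01. At an unadjusted p under 0.05, 3 members were then lower, beside 5.78% of all genes. After adjustment for length and GC 9 members were lower at that level, beside 6.78% of all genes. Lower values in all 4 paradigms were found for 14 members (12.7% of all genes) and higher values in all 4 for 8 members (12.9% of all genes), counted with no test.

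Of 16 genes often studied with cocaine, Jarid2 (-0.11 ± 0.03) and Dnmt3a (-0.06 ± 0.03) had an unadjusted p under 0.05 in the average effect, beside 12.8% of all genes. Neither passed adjusted p 0.05 in limma, and the 16 were listed with earlier results of these data known. For the other 14, average log2 differences were -0.00 ± 0.03 for Hdac1, 0.01 ± 0.03 for Hdac2, 0.01 ± 0.02 for Hdac3, 0.06 ± 0.05 for Hdac4 and 0.03 ± 0.06 for Hdac5 (SE). Sirt1 stood at -0.01 ± 0.03, Sirt2 at 0.06 ± 0.05, Ehmt1 at -0.01 ± 0.02 and Ehmt2 at -0.05 ± 0.04, the last pair being the main writers of dimethyl H3K9. Tet1 and Tet3, which oxidise methylcytosine, both stood at -0.03 ± 0.03, Prmt6 at 0.01 ± 0.04, Kdm1a at 0.03 ± 0.02 and Kmt2a at -0.08 ± 0.05. Over all 72 members the 95% limma intervals of the average effect reached no further than -0.20 (Smyd3) and 0.26 (Smyd1) on the log2(FPKM + 1) scale. In single paradigms they reached -0.56 (Setdb2) and 0.43 (Smyd1), both in self-administration. This scale understates the fold change of low genes such as these.

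In the acute paradigm no member passed adjusted p 0.05 (limma; 0 of all genes did, 0%). At an unadjusted p under 0.05 there was 1 member, beside 3.91% of all genes. That was Prmt5, which writes symmetric dimethylarginine, at 21.8 ± 1.3 FPKM in cocaine libraries (SD, n = 5) and 20.2 ± 0.945 FPKM in saline libraries (SD, n = 6). The exact permutation p of Prmt5 was 0.0519, which is not under 0.05. Over all genes the share was 2.24% without acute saline library 4 and 2.48% without acute saline library 5. The member count was 0 without acute cocaine library 2 or acute saline libraries 1, 2 or 4, beside 2.24% to 3.82% of all genes. It was 2 (2.78%) without acute cocaine libraries 0 or 3, after length adjustment, after length and GC adjustment or with library weights. In the settings with 2 members, 2.84% to 4.85% of all genes had such a p. Kmt2e had 8.83, 10.5, 10.7, 11.2 and 11.3 FPKM in cocaine libraries, against 10.9, 11.5 and 12.0 FPKM in saline libraries, and its 5 cocaine libraries all lay below the saline median (exact permutation p = 0.0346, limma adjusted p 0.987). Kdm5b, an H3K4 demethylase, had a difference of 0.08 and Setd8 of 0.11, while Kmt2a stood at -0.11 and Smyd3 at -0.13, all on the log2 scale. Of 12 dopamine neuron markers, 11 were lower in acute cocaine libraries, with a median difference of -0.41 and none past adjusted p 0.05. The summed levels were 718 to 2214 FPKM in cocaine libraries and 1304 to 2420 FPKM in saline libraries. Their part in these member values was not tested.

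In the chronic paradigm no member passed adjusted p 0.05 (limma; 0% of all genes). At an unadjusted p under 0.05 there were 8 members, all with lower values in cocaine libraries, which is 11.1% beside 3.22% of all genes lower and 7.36% in either direction. They were Jarid2, the H3K4 methyltransferases Kmt2a, Kmt2c and Kmt2d, the H3K4 demethylase Kdm5d, the H3K9 methyltransferase Setdb1, the H3K9 demethylase Kdm3b, and Dnmt3a. Reads of Kdm5d may be shared with its near copy Kdm5c.

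Kmt2a, a large H3K4 methyltransferase, had a lowest, median and highest level of 8.33, 8.78 and 9.69 FPKM in chronic cocaine libraries, against 9.07, 9.91 and 11.4 FPKM in chronic saline libraries. The groups overlapped, but each cocaine library lay below the saline median (log2 difference -0.18 ± 0.05, exact permutation p = 0.00433, limma adjusted p 0.498). Kmt2d, which acts at enhancers, had 3.47, 3.89 and 4.57 FPKM in cocaine libraries, against 4.15, 4.495 and 6.08 FPKM in saline libraries, with 5 of 6 cocaine libraries below the saline median. Its log2 difference was -0.24 ± 0.09 (SE; exact permutation p = 0.0216, limma adjusted p 0.603). Dnmt3a had 7.88, 8.09 and 8.89 FPKM in cocaine libraries, against 8.41, 8.92 and 10.3 FPKM in saline libraries, and all 6 cocaine libraries lay below the saline median.

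The chronic count differed between settings. It was 3 (4.17%) after adjustment for transcript length, beside 4.83% of all genes, and 4 (5.56%) after adjustment for length and GC content, beside 6.11%. In a single fit of all 8 groups it was also 4, beside 2.46% of all genes. All of these members had lower values in cocaine libraries, where 2.85%, 3.47% and 1.06% of all genes did in these 3 settings. Of the chronic markers, 11 of 12 for dopamine neurons (median 0.16) and 7 of 7 for oligodendrocytes (0.03) had higher values in cocaine libraries, and 5 of 5 for endothelium and pericytes (-0.17) had lower ones, none past adjusted p 0.05. Their part in the member values was not tested. Over all genes the median chronic difference was 0.05 in the shortest of the 4 length classes and -0.03 in the longest. After length adjustment the difference of Kmt2a was -0.10 and that of Jarid2 -0.16. The positive differences with the smallest p among members were those of Smyd1 (0.17), Sirt3 (0.09) and Setdb2 (0.07). Sirt3 had 48.0 ± 2.89 FPKM in cocaine libraries and 45.0 ± 3.37 FPKM in saline libraries (SD, n = 6 each). The exact permutation p of Sirt3 was 0.126.

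In conditioning no member passed adjusted p 0.05 (limma; 0% of all genes), and 3 members (4.17%, beside 8.26% of all genes) had an unadjusted p under 0.05. Smyd3 had a negative difference, and Prmt3 and Prmt5 had positive ones. The share of all genes was 5.31% without conditioning saline library 2, where 3 members still had such a p. The count was 5 with library weights, beside 8.93% of all genes, and 5 after adjustment for length and GC, beside 10.5%. Prmt3 had a lowest, median and highest level of 12.4, 13.8 and 15.8 FPKM in cocaine libraries, against 10.8, 11.9 and 13.3 FPKM in saline libraries. Prmt5 had 20.9, 21.8 and 23.8 FPKM in cocaine libraries, against 19.1, 20.8 and 21.1 FPKM in saline libraries. For both, all 6 cocaine libraries lay above the saline median, and exact permutation p was 0.0152 for Prmt3 and 0.00649 for Prmt5. Kdm8, a JmjC-domain protein, had a difference of 0.14, and Ehmt2 of -0.12, with 32.6, 41.1 and 42.8 FPKM in cocaine libraries against 40.0, 42.6 and 46.1 FPKM in saline libraries.

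In self-administration no member passed adjusted p 0.05 (limma; 0% of all genes), and 5 members (6.94%, beside 3.47% of all genes) had an unadjusted p under 0.05. Besides Jarid2 and Smyd3 they were Prmt8, Sirt4 and Setd5. Prmt8, a membrane-bound arginine methyltransferase of neurons, had 6.97, 8.53 and 11.1 FPKM in cocaine libraries, against 6.68, 7.63 and 8.75 FPKM in saline libraries. Sirt4, a mitochondrial sirtuin, had 4.07, 5.05 and 6.60 FPKM in cocaine libraries, against 3.18, 4.47 and 5.50 FPKM in saline libraries, with 14 of 15 cocaine libraries above the saline median. Setd5, a SET-domain protein, had 16.3, 19.0 and 20.6 FPKM in cocaine libraries, against 18.03, 19.98 and 21.1 FPKM in saline libraries, with 14 of 15 below the saline median. The groups overlapped for each of the 5.

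That count was 11 (15.3%) without self-administered saline library 2, beside 7.05% of all genes. It was 3 (4.17%) without cocaine libraries 0, 4, 5 or 8, beside 2.34% to 3.27% of all genes, and 2 (2.78%) without saline libraries 0, 1, 5 or 7, beside 2.65% to 2.94%. Without cocaine library 6 it was 6, beside 6.07% of all genes. It was 10 (13.9%) in a single fit of all 8 groups, beside 7.55% of all genes, and 24 (33.3%) with library weights, beside 24.7%. Self-administered saline library 2 had the highest oligodendrocyte marker sum of its group, 8291 FPKM, where the other 8 lay between 3817 and 5852 FPKM. The part of these markers in the member values was not tested.

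Whether the 4 cocaine effects differed was tested for each member in a fit of all 59 libraries. No member passed the F test at adjusted p 0.05 (limma; 0% of all genes), and 0 members had an unadjusted p under 0.05, beside 1.43% of all genes. The smallest values were an unadjusted p of 0.0601 for Setd5, 0.0645 for Kdm3a and 0.112 for Prmt5. With library weights 7 members (9.72%) had an unadjusted p under 0.05 in this test, beside 10.1% of all genes, and with either adjustment for length 1 had, beside 1.52% and 1.90%. The 78 other chromatin genes listed beside the members, of which 75 were tested, were read in the same fits. In the average effect 0 passed adjusted p 0.05 in limma and 12 had an unadjusted p under 0.05, all with negative differences, where 6.34% of all genes had such values. In the chronic paradigm 13 had negative and 0 positive differences at that level, where 3.22% of all genes were negative. These other genes were not refitted with length adjustment. Over all genes the median chronic difference was 0.05 in the shortest length class and -0.03 in the longest, and its part in these counts was not tested. The list comprised acetyltransferases, polycomb proteins, corepressors, readers, other methyltransferases and remodelling factors.

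Between paradigms many members passed the same threshold. In saline libraries alone, 44 members (61.1%) passed adjusted p 0.05 between self-administration and the mean of the other 3 paradigms (limma), beside 59.6% of all genes. Of these 27 were higher in self-administration, beside 31.8% of all genes, and 17 lower, beside 27.8%. Leaving out single libraries gave 42 to 48 members. After length adjustment the split was 18 higher, beside 30.1% of all genes, and 22 lower, beside 27.3%. The same contrast within cocaine libraries called 46 members (63.9%), beside 59.1% of all genes. Of these 28 were higher, beside 32.2% of all genes, and 18 lower, beside 26.9%. In all, 42 were called in both with the same sign, which is 95.5% of the saline calls and 91.3% of the cocaine calls. Over all genes these shares were 85.8% and 86.5%. The share of all members called in both was 58.3%, and of all genes 51.1%. Within the other 3 saline groups no member passed an F test at adjusted p 0.05 (limma), beside 0.0303% of all genes, and 0 had an unadjusted p under 0.05, beside 3.76% of all genes. Self-administration libraries may also have been prepared apart from the others, and paradigm and handling cannot be told apart.

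**Figure D4:**
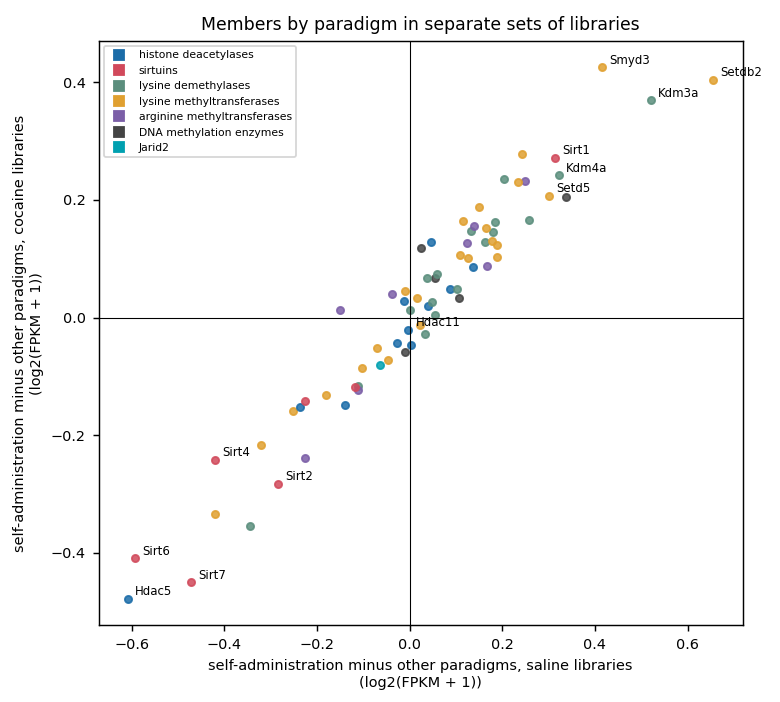
Difference in log2(FPKM + 1), self-administration minus the mean of the other 3 paradigms, for the 72 members in cocaine libraries (vertical axis) and saline libraries (horizontal axis), coloured by family. The axes share no library; Hdac5, Sirt6 and Sirt7 lie at the lower left, and Setdb2, Kdm3a and Smyd3 at the upper right.

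The sirtuins, deacylases that depend on NAD, were lower in self-administration for 6 of 7 genes in saline libraries, each past adjusted p 0.05. That is 85.7%, beside 27.8% of all genes. After length adjustment 5 were called lower (71.4%, beside 27.3% of all genes), and with GC adjusted as well also 5 (beside 27.1%). Sirt6, a nuclear deacetylase of H3K9, had a lowest, median and highest level of 3.57, 4.61 and 6.29 FPKM in self-administered saline libraries, against 7.28, 7.85 and 8.42 FPKM in the 18 other saline libraries. Sirt7, found in nucleoli, had 6.18, 7.46 and 7.95 FPKM, against 8.25, 10.3 and 12.3 FPKM in the others, and Sirt4 had 3.18, 4.47 and 5.50 FPKM, against 5.77, 6.22 and 6.92 FPKM in the others. None of these 3 overlapped in saline libraries, where 8.53% of all genes had no overlap. The log2 differences were -0.59 ± 0.06 for Sirt6 (limma adjusted p 1.43e-09), -0.47 ± 0.06 for Sirt7 (4.64e-08) and -0.42 ± 0.06 for Sirt4 (4.69e-07). Sirt2 at -0.28, Sirt5 at -0.23 and Sirt3 at -0.12 were lower as well.

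Sirt1, the nuclear deacetylase most studied in brain, went the other way, with 4.17, 4.79 and 5.56 FPKM in self-administered saline libraries, against 3.18, 3.61 and 4.38 FPKM in the other saline libraries. Its difference was 0.31 ± 0.04 on the log2 scale (limma adjusted p 2.50e-07). In cocaine libraries Sirt1 was again higher (0.27) and the other 6 lower, with -0.41 for Sirt6, -0.45 for Sirt7 and -0.24 for Sirt4, each past adjusted p 0.05. Over all genes 26.9% were called lower in cocaine libraries. The signs held under each scaling run. The call of Sirt3 was lost in saline libraries under quantile normalization, median scaling, length adjustment and length with GC adjustment (adjusted p 0.0938, 0.0705, 0.660 and 0.254). In cocaine libraries Sirt3 and Sirt5 were not called after length adjustment, Sirt3 and Sirt6 after length with GC adjustment, and Sirt3 under quantile normalization.

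Among the other histone deacetylases Hdac5, a class IIa enzyme that shuttles between nucleus and cytoplasm, had 25.6, 34.1 and 48.5 FPKM in self-administered saline libraries, against 48.1, 53.5 and 58.1 FPKM in the other saline libraries. The ranges met only at their edge, between 48.1 and 48.5 FPKM. The difference was -0.61 ± 0.06 on the log2 scale (limma adjusted p 1.69e-09), -0.48 in cocaine libraries, and -0.41 in saline libraries after adjustment for length and GC. Hdac2 (-0.24) was lower and Hdac3 (0.14) higher, and the remaining 8 histone deacetylases did not pass. Hdac11 stood at -0.00 ± 0.04. Of the 11 histone deacetylases 1 was thus higher (9.09%, beside 31.8% of all genes) and 2 lower (18.2%, beside 27.8%) in saline libraries. After length adjustment 1 was higher (9.09%, beside 30.1%) and 3 lower (27.3%, beside 27.3%). With GC adjusted as well, 3 were higher (27.3%, beside 28.7%) and 2 lower (18.2%, beside 27.1%).

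Of the 17 demethylases, 9 were higher (52.9%, beside 31.8% of all genes) and 2 lower (11.8%, beside 27.8%) in saline libraries. After length adjustment 4 were higher (23.5%, beside 30.1% of all genes) and 3 lower (17.6%, beside 27.3%). After adjustment for length and GC 5 were higher (29.4%, beside 28.7%) and 4 lower (23.5%, beside 27.1%). Kdm3a, which removes methyl groups from H3K9, had 8.76, 9.73 and 13.3 FPKM in self-administered saline libraries, against 5.99, 6.87 and 7.71 FPKM in the other saline libraries. Kdm4a, which acts on H3K9 and H3K36, had 12.5, 14.0 and 17.6 FPKM, against 10.7, 11.2 and 12.2 FPKM in the others. Neither overlapped in saline libraries, where 8.53% of all genes had no overlap. The log2 differences were 0.52 ± 0.05 for Kdm3a and 0.32 ± 0.04 for Kdm4a. Kdm6b, an H3K27 demethylase known as an induced gene, was lower (-0.34), and its relative Kdm6a was higher (0.18).

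Of the 23 lysine methyltransferases 11 were higher (47.8%, beside 31.8% of all genes) and 4 lower (17.4%, beside 27.8%) in saline libraries. After length adjustment 7 were higher (30.4%, beside 30.1%) and 7 lower (30.4%, beside 27.3%). With GC adjusted as well, 12 were higher (52.2%, beside 28.7%) and 3 lower (13.0%, beside 27.1%). Setd5 had 18.03, 19.98 and 21.1 FPKM in self-administered saline libraries, against 14.7, 16.0 and 17.1 FPKM in the other saline libraries, without overlap (0.30 ± 0.03). Of all genes 8.53% had no overlap there. Smyd3 was higher by 0.42 in saline libraries and by 0.43 in cocaine libraries, and Setdb2, an H3K9 methyltransferase, by 0.66 and 0.40. Setdb2 was uneven, with 1.96, 2.31 and 7.35 FPKM in self-administered saline libraries against 1.27, 1.55 and 1.96 FPKM in the other saline libraries. Smyd1 (-0.42), Setd8 (-0.32), Ehmt2 (-0.25) and Setd1b (-0.18) were lower. Setd1a shares 3523 exonic bases with Gm49388 on the same strand, so its difference of 0.19 is uncertain. Among the rest 4 of 8 arginine methyltransferases were higher (50%, beside 31.8% of all genes) and 3 lower (37.5%, beside 27.8%). After length adjustment 4 were higher (beside 30.1%) and 2 lower (25%, beside 27.3%). With GC adjusted as well the counts were again 4 (beside 28.7%) and 2 (beside 27.1%). Without adjustment Tet2 was higher (0.34), 1 of 5 DNA methylation enzymes (20%, beside 31.8%). Dnmt1, Dnmt3a, Tet1, Tet3 and Jarid2 did not pass in saline libraries. Jarid2 passed as lower there after either adjustment.

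In saline libraries 6 members had no overlap between self-administration and the other paradigms (8.53% of all genes), namely Sirt4, Sirt6, Sirt7, Kdm3a, Kdm4a and Setd5. In cocaine libraries 2 had none (4% of all genes), Sirt7 and Smyd3. Base composition moved with the contrast over the whole table, with a median log2 difference of 0.10 in the lowest of 4 GC classes of like size and -0.19 in the highest. Hdac5 with 58.8% GC, Sirt6 with 58.4% and Sirt7 with 58.4% lie in that highest class, as do Setd1a with 57.0%, which was higher, and Hdac11 with 57.4%, Kdm4b with 58.7% and Kmt2b with 59.1%, which did not pass. In the lowest class Sirt1 with 44.0% was higher and Hdac2 with 41.9% lower. The medians of the members were 0.13 in the lowest class and -0.08 in the highest. Of 7 oligodendrocyte markers 6 were lower and none higher, with a median of -0.46, and their summed level was 3817 to 8291 FPKM in self-administered saline libraries against 5732 to 9209 FPKM in the other saline libraries. Of 7 microglia markers 5 were lower, of 6 astrocyte markers 3 were higher and 1 lower, and 3 of 12 dopamine neuron markers were lower. Of the 5 hypothalamic and mammillary markers 2 were higher and 1 lower, and their sum ran from 10.1 to 209.8 FPKM in self-administered saline libraries. The part of these in the member values was not tested beyond the adjustment for length and GC. After that adjustment 43 members were called in saline libraries. Of these 26 were higher, beside 28.7% of all genes, and 17 lower, beside 27.1%.

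Within groups, some members followed cell-type markers from library to library. Deviations of each member from its group mean were set against the mean log2 deviation of the dopamine neuron or the oligodendrocyte markers, in the 24 self-administration libraries and the 35 others, a total of 288 relations. Of these 38 passed Benjamini-Hochberg adjustment, 16 positive and 22 negative. In self-administration libraries 18 members passed with the oligodendrocyte markers, 5 of them positive and 13 negative, and 2 with the dopamine neuron markers, both positive. In the others 9 passed with the oligodendrocyte markers, 5 positive and 4 negative, and 9 with the dopamine neuron markers, 4 positive and 5 negative. At or above the smallest correlation that passed there, in either direction, lay 26.4% of members and 15.3% of all genes for oligodendrocyte markers in self-administration, and 18.1% and 14.2% in the others. For dopamine neuron markers these shares were 2.78% of members and 3.07% of all genes in self-administration, and 12.5% and 14.5% in the others. Hdac9, Sirt2 and Smyd1 were the members whose relation passed Benjamini-Hochberg adjustment in both sets of libraries.

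Hdac9, a class IIa deacetylase, was positively related to the dopamine neuron markers. Pearson's r was 0.58 over the 24 self-administration libraries (permutation p = 0.00351, adjusted 0.0306) and Spearman's rho was 0.74 (permutation p = 0.00011). Over the 35 others r was 0.89 and rho 0.88, both at permutation p = 1e-05, the smallest that 100000 draws can give. Without the 2 libraries farthest from the median of the markers, r was 0.47 in self-administration and 0.86 in the others. Of all genes other than the markers, 2.25% had an r at least as high in self-administration and 0.874% in the others. One self-administered cocaine library stood high for its markers, with 11.8 FPKM of Hdac9 where the highest of the other 14 had 8.36 FPKM. By group means Hdac9 was even, at 6.84 ± 1.68 FPKM in self-administered cocaine (SD, n = 15) and 7.28 ± 1.29 FPKM in self-administered saline libraries (SD, n = 9).

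Sirt2 and Smyd1 were positively related to the oligodendrocyte markers. For Sirt2, r was 0.79 over self-administration libraries (rho 0.72, permutation p = 1e-05 and 0.00013) and 0.59 over the others (rho 0.53, permutation p = 0.00125 and 0.00447). For Smyd1, r was 0.77 over self-administration libraries (rho 0.74, permutation p = 7e-05 and 8e-05) and 0.54 over the others (rho 0.55, permutation p = 0.00385 and 0.00197). Adjusted values lay between 0.000576 and 0.0348 for these 8 relations. Without the 2 farthest libraries r was 0.65 and 0.58 for Sirt2 and 0.83 and 0.51 for Smyd1, self-administration first. An r at least as high as that of Sirt2 was found for 0.311% of all genes in self-administration and 2.49% in the others, and for Smyd1 the shares were 0.600% and 4.21%. The libraries share tissue dissection and the summed scale of FPKM, and these relations are across libraries within groups.

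**Figure D5:**
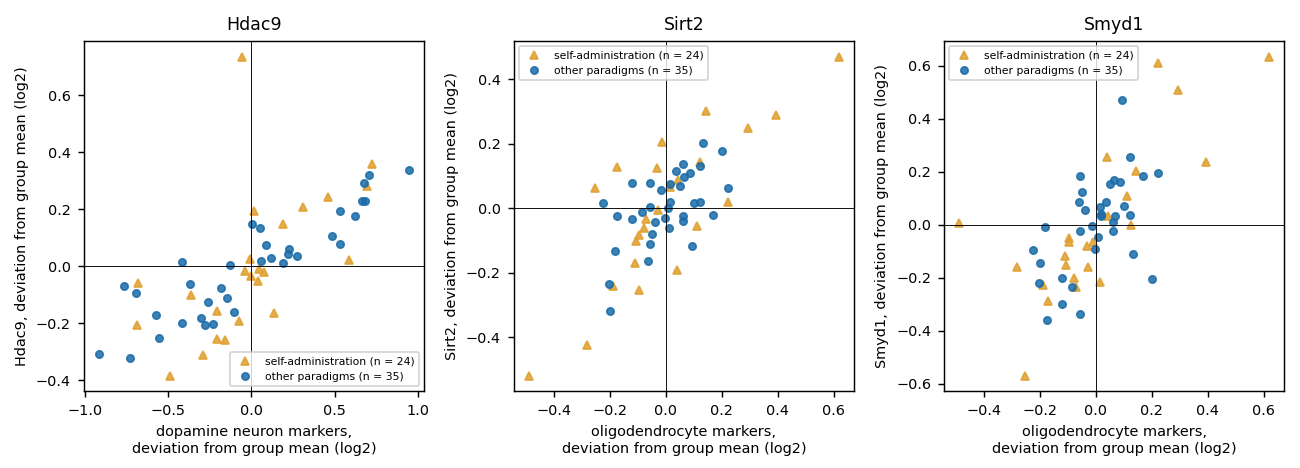
Deviation from the group mean (log2) of Hdac9 against dopamine neuron markers, and of Sirt2 and Smyd1 against oligodendrocyte markers, in self-administration libraries (triangles, n = 24) and libraries of the other paradigms (dots, n = 35). All 3 relations are positive, with r of 0.58 and 0.89, 0.79 and 0.59, and 0.77 and 0.54.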

How the data were processed

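RNA of mouse ventral tegmental area was extracted with an RNeasy kit and made into libraries with a TruSeq RNA kit, per the labels' protocols. The authors deposited 1 table of FPKM for 59 libraries, made with Bowtie and Cuffnorm on mm10, per the submitters' processing notes. Their versions, annotation and strand settings were not given in the sources used here. The depth is unknown, since low FPKM values did not fall into steps of whole reads, so no counting error is given. Sums of FPKM were 398577 to 457508 per library. Columns name a group and a number from 0 and were taken as unpaired libraries; 0 columns were left out.

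Values were tested as log2(FPKM + 1) with limma 3.58.1 in R 4.3.3 (trend and robust options, two-sided) over the 13186 genes with a mean FPKM of at least 1, with Benjamini-Hochberg adjustment at 0.05. The average effect had paradigm as a term, and each paradigm was also fitted alone. A difference on this scale understates the change of low genes. Single genes were also tested by permutation, exact or with 100000 draws. The code was tested on simulated data. Transcript lengths, GC content and overlaps come from GENCODE M21 on GRCm38, where 2 members were matched by synonym, and promoters from RefSeq.

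Members and lists were chosen with earlier results of these data known. Genes were named as the 3 or 4 members with the smallest p per direction and comparison, those past adjusted p 0.05, the 3 with the smallest p of the F test, the 3 highest and lowest by level, and 16 genes often studied with cocaine. The contrast in cocaine libraries, the adjustment for length and GC, the marker relations and the counts without overlap were chosen after seeing the data, as were the other members named in the account of self-administration.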

Additional observations from a re-analysis of the deposited data

Results flagged for a closer look

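In 9 of 266 groups of 4 to 10 libraries, over 38 named members, 1 library lay further from its neighbours than the spread of the rest allows by Dixon's criterion, where chance flags about 1 in 20 groups. Ehmt2 had 33.03 FPKM in acute cocaine library 4, below the 43.9 to 47.6 FPKM of the others. Jarid2 had 7.545 FPKM in acute cocaine library 2, above the 6.85 to 6.99 FPKM of the others. Hdac1 had 17.69 FPKM in conditioning cocaine library 3, above 13.5 to 14.7 FPKM, and 13.65 FPKM in chronic saline library 5, below 14.9 to 15.2 FPKM. Hdac2 had 37.92 FPKM in conditioning saline library 1, below 41.9 to 43.8 FPKM. Sirt1 had 4.518 FPKM in conditioning cocaine library 2, above 3.09 to 3.62 FPKM, and 4.379 FPKM in acute saline library 4, above 3.47 to 3.67 FPKM. Prmt3 had 9.623 FPKM in self-administered saline library 1, below 11.0 to 11.8 FPKM, and Smyd1 had 3.287 FPKM in chronic saline library 1, below 4.56 to 4.74 FPKM.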

How the results depend on the processing

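No paired analysis was possible because columns are numbered from 0, replicates in the labels are not, and nothing links one to the other. Of the members named for the smallest p in a cocaine comparison or in the saline contrast, none changed sign under the alternatives run. The other members named were not refitted without single libraries. With library weights, members called in the average effect numbered 1 (Jarid2) in place of 0, and genes called were 41 in the average effect, 1 in conditioning and 1 in self-administration. With length and GC adjustment 3 genes were called in the average effect and 1 in the chronic paradigm. In a single fit of all 8 groups 1 gene was called in the chronic paradigm and 2 in self-administration. Genes called in the average effect were 0 without the acute paradigm and 2 without self-administration. When single libraries were left out, members called in the average effect ran from 0 to 1 and genes called from 1 to 3, with 3 without self-administered saline library 2 or 4 and 2 without library 8. Genes called in the chronic paradigm ran from 0 to 1, with 1 without chronic cocaine library 0 or chronic saline library 0. The causes were not tested. Pseudocount 0.1, quantile normalization, median scaling, filters on low values and the robust option left each count of genes and members past adjusted p 0.05 within 1.5 times. FPKM without depth limits what can be said of the lowest members, such as Tet1 and Setd4.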
